A study of Mus musculus with 18 samples.

Results

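The feedback inhibitors of cytokine and NF-kB signalling are genes that cytokine or Toll-like receptor signals switch on and whose products then damp those same signals. They were followed in bone marrow-derived macrophages (BMDM), macrophages grown from mouse marrow with the growth factor M-CSF. The set comprised Socs1, Socs2, Socs3, Cish, Nfkbia, Nfkbiz, Tnfaip3, Zfp36, Dusp1 and Dusp2, taken by symbol as 10 of the 18668 rows of the gene table. It was chosen with earlier results of these data known, so counts of its genes that moved are descriptive. All 10 were among the 12838 genes with an RPKM value (reads scaled to transcript length and library size) of 0.1 or more in 3 or more libraries, which were the genes tested. The C57BL6 mice were either Apoe-/- or Apoe-/-/Treml4-/- double knockouts, so that loss of Apoe, the gene of apolipoprotein E, was shared by every group, controls included. BMDM of each genotype received PBS vehicle (untreated) or oxLDL, the oxidized form of low-density lipoprotein that turns macrophages into foam cells in diseased arteries, at a low (10 µg/ml) or a high (60 µg/ml) dose. Each of the 6 groups had 3 biological replicates, numbered by the labels. The series design gave 16 h of treatment, the study's methods a longer time, and a protocol label also mentioned LPS, which no group name does. The comparisons asked how oxLDL moved these inhibitors at each dose and whether Treml4 loss altered that.

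Loss of Treml4 was visible in the libraries. The gene stood at 1.86 to 8.39 RPKM in the 9 Apoe-/- libraries and was listed at 0 in 8 of the 9 double-knockout libraries, with 0.0116 RPKM in the other. Apoe stood at 0.349 to 4.13 RPKM over all 18, and with no Apoe-intact library its loss could not be checked. Recovered whole reads placed the libraries at 34.3 to 46.8 M reads, a ratio of 1.36. The 8 macrophage markers summed to 5560 to 12000 RPKM, whereas the lists for dendritic, T or NK, mast and erythroid cells each stayed under 1 RPKM in sum, B cell markers reached 2.41, neutrophil markers 30.1 to 82.3 and stromal markers 0.57 to 14.3. Libraries of replicate 2 in Apoe-/- and of replicate 3 in the double knockout, 6 in all, held Xist at 7.25 to 14.5 RPKM while the other 12 had next to none, so each genotype mixed animals of both sexes.

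These inhibitors form negative feedback loops. NF-kB, once freed, induces Nfkbia, whose protein IkBa binds NF-kB and pulls it back out of the nucleus, and Tnfaip3, whose protein A20 edits ubiquitin chains on the signalling complexes upstream. Cytokine receptors that use JAK kinases activate STAT factors, which induce Cish and the Socs genes, and the SOCS proteins then block the receptor or the kinase. Zfp36 encodes tristetraprolin, which marks cytokine mRNAs with AU-rich elements for decay, and the DUSP phosphatases switch off MAP kinases. In macrophages the levels of these genes are therefore often read beside those of the cytokines they restrain.

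The start-proximal DNA of several inhibitors matches sites for NF-kB or STAT factors, an interferon-stimulated response element core or a cyclic AMP response element. Of these, 6 stretches are shown, and a link between their sites and the responses of the genes was not tested. RefSeq windows of 300 bases around annotated starts (GRCm38.p6, the assembly that mm10 denotes) were matched by symbol for 8 of the 10 genes, as 9 windows since Tnfaip3 had 2. Searched on both strands of 32851 such windows, the NF-kB consensus (the kB consensus) was found in 4.51%, the STAT site TTCNNNGAA in 8.3%, the interferon-stimulated response element core in 3.44% and the cyclic AMP response element TGACGTCA in 1.79%. Each stretch runs 5′ to 3′ on the gene's strand from base -250 to base -1 before the annotated start, for Cish on to base 20 after it, with matches in capitals. The Socs3 start used in RefSeq's window lies inside the gene's outermost bounds, whereas the other 5 starts are the 5′ ends of their genes.
Nfkbia, chr12:55492648-55492897 (minus strand), kB consensus at -29 to -20: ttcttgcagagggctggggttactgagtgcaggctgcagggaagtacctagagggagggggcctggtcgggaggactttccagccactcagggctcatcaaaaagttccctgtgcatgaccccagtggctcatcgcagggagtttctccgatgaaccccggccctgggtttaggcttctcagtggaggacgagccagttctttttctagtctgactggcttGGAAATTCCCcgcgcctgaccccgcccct
Tnfaip3, chr10:19015411-19015660 (minus strand), kB consensus at -125 to -116 and at -12 to -3: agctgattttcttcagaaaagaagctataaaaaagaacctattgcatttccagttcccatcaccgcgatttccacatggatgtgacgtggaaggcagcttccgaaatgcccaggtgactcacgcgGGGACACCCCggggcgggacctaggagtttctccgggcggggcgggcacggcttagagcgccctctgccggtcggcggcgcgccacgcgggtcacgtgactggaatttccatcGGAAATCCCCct
Socs3, chr11:117969367-117969616 (minus strand), STAT site at -154 to -146: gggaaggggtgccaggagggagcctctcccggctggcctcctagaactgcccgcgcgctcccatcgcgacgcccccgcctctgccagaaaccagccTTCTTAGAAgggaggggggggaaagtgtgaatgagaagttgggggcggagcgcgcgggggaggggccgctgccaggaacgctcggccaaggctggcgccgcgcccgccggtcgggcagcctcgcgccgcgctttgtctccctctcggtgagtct
Cish, chr9:107296409-107296678 (plus strand), STAT sites at 1 to 9 and at 12 to 20: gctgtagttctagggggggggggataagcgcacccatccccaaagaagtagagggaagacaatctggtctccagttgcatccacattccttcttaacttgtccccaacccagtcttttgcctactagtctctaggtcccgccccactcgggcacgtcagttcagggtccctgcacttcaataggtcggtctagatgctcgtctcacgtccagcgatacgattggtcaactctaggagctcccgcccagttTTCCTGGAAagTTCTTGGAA
Socs1, chr16:10785537-10785786 (minus strand), overlapping interferon element cores at -83 to -74 and -77 to -68: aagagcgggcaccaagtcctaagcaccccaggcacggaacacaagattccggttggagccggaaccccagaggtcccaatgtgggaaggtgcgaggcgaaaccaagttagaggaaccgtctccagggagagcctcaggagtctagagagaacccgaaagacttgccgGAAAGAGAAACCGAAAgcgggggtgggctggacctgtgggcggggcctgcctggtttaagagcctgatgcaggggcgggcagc
Dusp1, chr17:26508473-26508722 (minus strand), cyclic AMP response element at -143 to -136: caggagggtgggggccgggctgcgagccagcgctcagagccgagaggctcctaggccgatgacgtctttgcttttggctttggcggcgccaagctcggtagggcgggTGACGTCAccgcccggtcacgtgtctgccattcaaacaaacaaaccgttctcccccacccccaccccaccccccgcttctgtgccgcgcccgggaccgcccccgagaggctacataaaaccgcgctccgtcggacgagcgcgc
Zfp36 also held a STAT site, at -17 to -9, and the Dusp2 window and the other Tnfaip3 window held none of the motifs searched. These matches describe the letters in the windows only, and binding was not measured.

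Before oxLDL the inhibitors spanned a wide range of levels per length. In untreated Apoe-/- BMDM Nfkbia was the most abundant at 109.6 ± 12.2 RPKM (SD, n = 3, as for all means here), above Zfp36 at 24.5 ± 5.12. Socs3 at 14.4 ± 3.98, Tnfaip3 at 14.2 ± 1.68, Dusp1 at 11.1 ± 1.27 and Nfkbiz at 9.29 ± 1.55 followed, and from Zfp36 to Nfkbiz each gene's replicates overlapped those of the next in the order. Dusp2 at 1.86 ± 0.207 and Socs1 at 0.801 ± 0.156 were lower and separate from their neighbours. Cish at 0.167 ± 0.0152 and Socs2 at 0.144 ± 0.0218 came last and overlapped each other. The 2 least abundant genes rested on few reads, 5 to 34 per library for Cish and 4 to 31 for Socs2, against 90 to 2271 for Socs3.

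oxLDL lowered most of these inhibitors in both genotypes. At the low dose 6 of the 10 genes fell in Apoe-/- BMDM (Socs3, Cish, Nfkbiz, Tnfaip3, Zfp36 and Dusp2) and none rose, while of all genes tested 2.04% fell and 0.748% rose. At the high dose 8 of 10 fell, with Socs1 and Nfkbia added, against 6.78% of all genes that fell and 7.13% that rose. In the double knockout 6 of 10 fell at the low dose (Socs1, Socs3, Cish, Nfkbia, Nfkbiz and Dusp2; 1.69% of all genes fell and 0.569% rose) and 7 of 10 at the high dose (the same genes and Zfp36; 7.31% fell and 4.87% rose). A gene was said to fall or rise where limma's moderated test on log2(RPKM + 0.1), adjusted by Benjamini-Hochberg over the 12838 genes, gave an adjusted p under 0.05 and the fold was at least 1.4. The median log2 fold change of the 10 genes was -0.65 at the low and -1.02 at the high dose in Apoe-/-, beside 0.07 and 0.06 over all genes, and -0.66 and -1.11 in the double knockout, beside 0.02 and -0.06. The low-dose counts leaned on single libraries, running from 4 to 7 in Apoe-/- and from 3 to 7 in the double knockout over fits that each left out 1 library, with 3 reached without double-knockout untreated replicate 3. The macrophage marker sum was also lower, at 8930 to 11800 RPKM untreated and 6530 to 8480 at the high dose in Apoe-/- and at 8380 to 11000 and 5560 to 7150 in the double knockout, mostly through Lyz2 (lysozyme). Without Lyz2 the other 7 markers summed to 1780 to 2290 and 1620 to 1790 RPKM in Apoe-/- and to 1940 to 2220 and 1580 to 1650 in the double knockout. They moved both ways, with Cd14 (-1.61 and -1.81) and Fcgr1 (-0.80 and -0.90) lower and Mertk (0.68 and 0.70) higher in both genotypes. In such bulk samples fewer cells of a type and less RNA per cell cannot be told apart, and the part of either in the results was not tested.

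**Figure D1:**
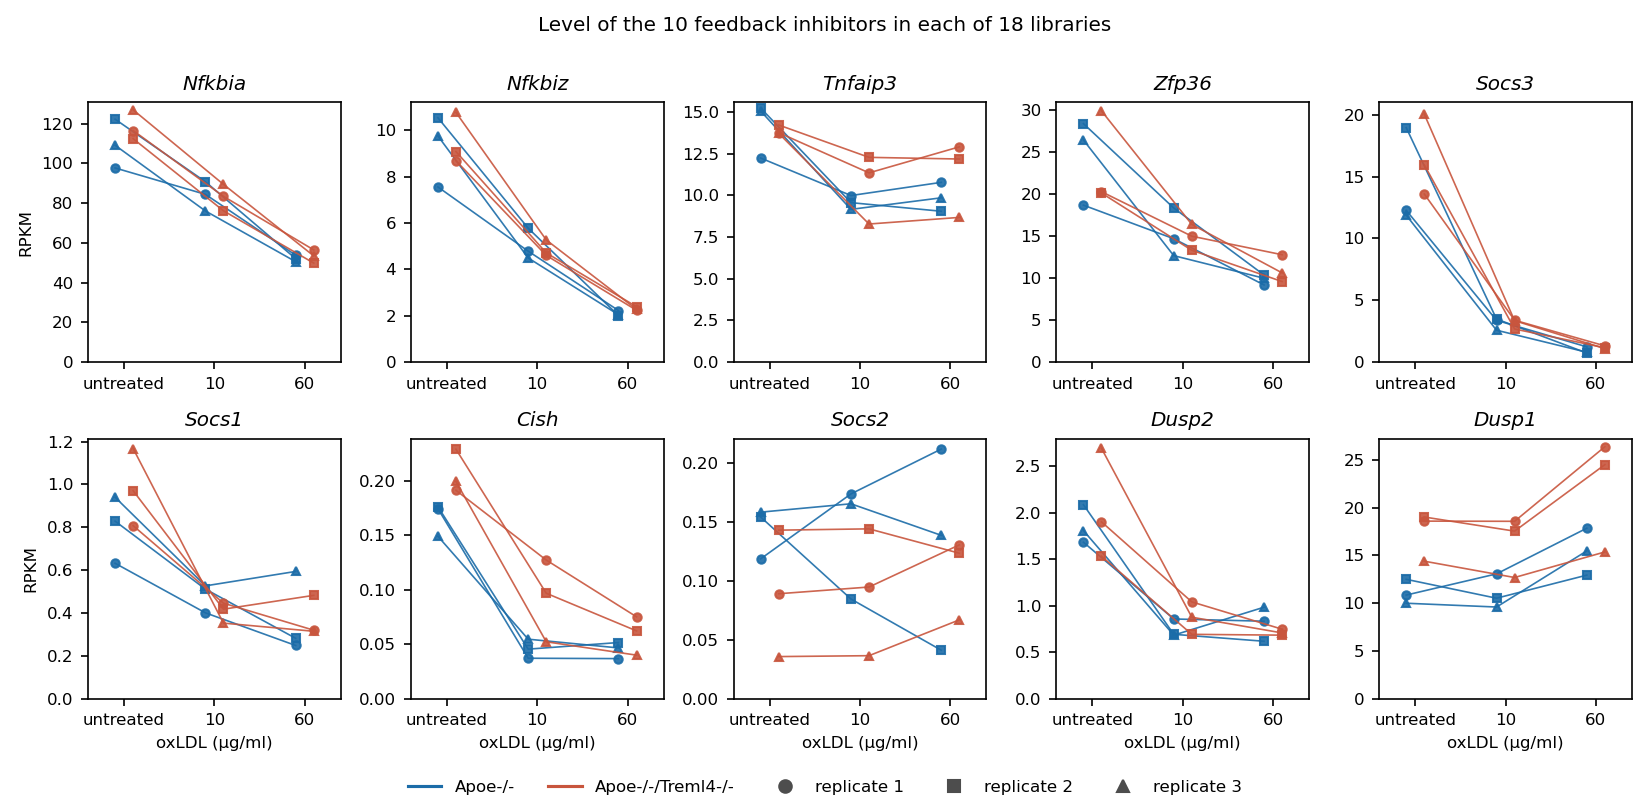
Level (RPKM, linear axes from 0) of each of the 10 feedback inhibitors in the 18 libraries, untreated and at 10 and 60 µg/ml oxLDL. Lines join libraries of the same replicate number within a genotype, and 8 of the 10 panels descend in all 6 lines from untreated to the high dose, with Socs2 and Dusp1 as the exceptions.

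**Figure D2:**
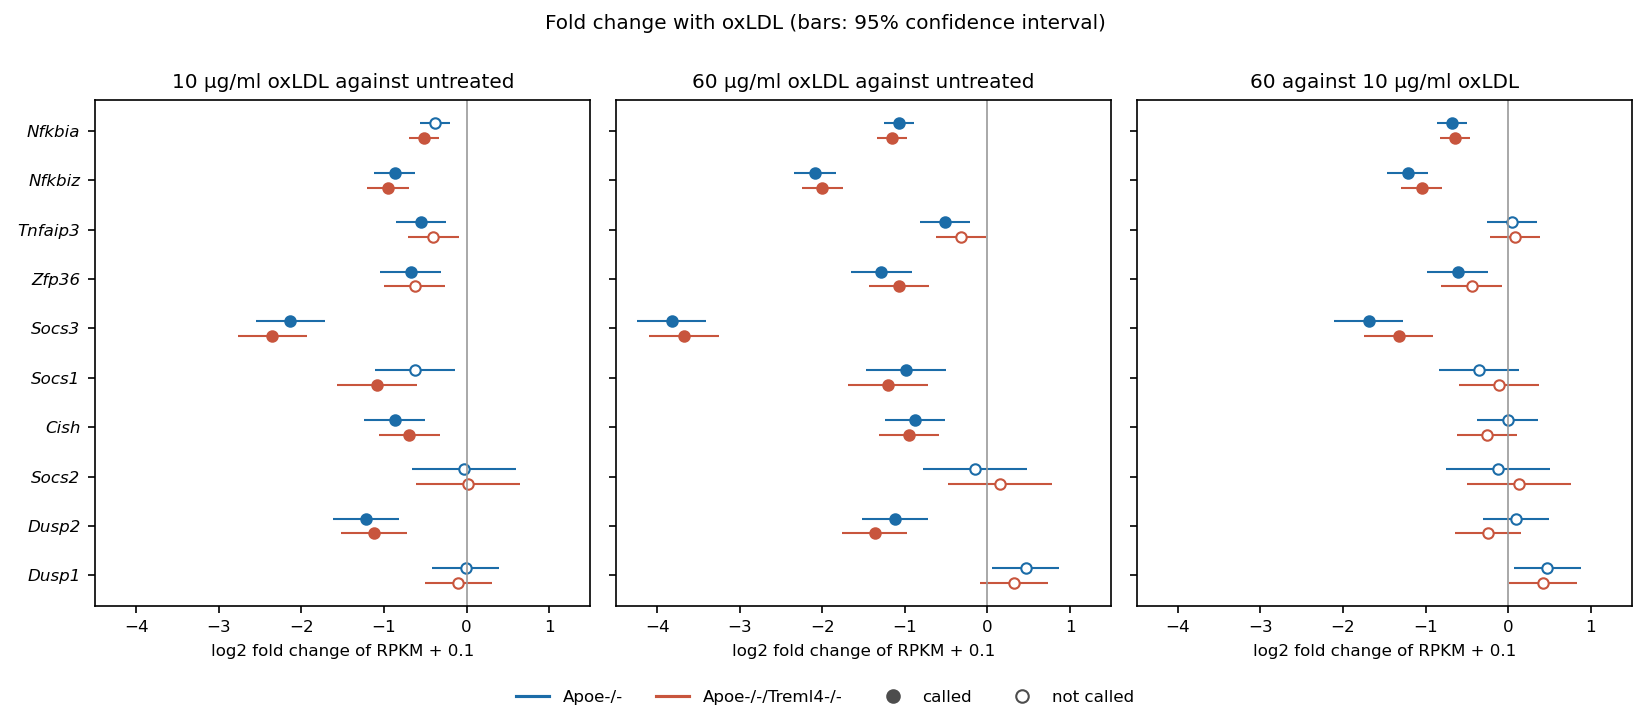
Log2 fold change of RPKM + 0.1 for each inhibitor, with its 95% confidence interval, for 3 contrasts and both genotypes. Filled points passed the threshold, and Socs3 lies farthest from 0, at -3.82 and -3.68 for the high dose in Apoe-/- and Apoe-/-/Treml4-/- BMDM.

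Among the NF-kB inhibitors, Nfkbia (chromosome 12, 55489409 to 55492647) declined in steps with dose. In Apoe-/- BMDM it stood at 97.7, 122 and 109 RPKM untreated, at 84.4, 90.7 and 76.0 at the low dose and at 53.8, 52.0 and 50.5 at the high dose. Double-knockout values were 116, 112 and 127, then 83.4, 76.1 and 89.4, then 56.4, 49.8 and 53.4. At each step the ranges within a genotype did not overlap. The log2 fold change from untreated to the high dose was -1.07 (SE 0.0861, adjusted p = 6.7e-08) in Apoe-/- and -1.15 (SE 0.0861, adjusted p = 3.16e-08) in the double knockout. At the low dose the change was -0.39 in Apoe-/-, with an adjusted p of 0.0119 but under the fold limit, and -0.52 in the double knockout (adjusted p = 0.00215), where the gene came under the fold limit without untreated replicate 3 (-0.47) or without low-dose replicate 2 (-0.46).

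Nfkbiz (chromosome 16, 55811375 to 55838954) encodes IkBz, a nuclear relative of IkBa that, unlike it, also helps NF-kB to transcribe a group of late genes such as Il6. It fell further than Nfkbia. Its levels in Apoe-/- BMDM were 7.56, 10.5 and 9.76 RPKM untreated, 4.79, 5.78 and 4.50 at the low dose and 2.23, 2.01 and 2.04 at the high dose. Those of the double knockout were 8.69, 9.09 and 10.8, then 4.60, 4.71 and 5.27, then 2.24, 2.39 and 2.27. The 3 treatments formed separate bands in both genotypes, and the high-dose mean was 22.5% of untreated in Apoe-/- and 24.2% in the double knockout. The log2 fold changes were -0.87 and -2.09 at the low and high dose in Apoe-/- (adjusted p = 0.000367 and 1.41e-09) and -0.95 and -2.00 in the double knockout (adjusted p = 0.000177 and 3.15e-09).

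Tnfaip3 (chromosome 10, 19000910 to 19015410) moved least among the genes that fell in Apoe-/- BMDM, and did not fall further between the doses. In Apoe-/- BMDM the 3 libraries gave 12.2, 15.2 and 15.1 RPKM untreated, 9.99, 9.56 and 9.16 at the low dose and 10.8, 9.05 and 9.85 at the high dose. The double knockout gave 13.8, 14.2 and 13.7, then 11.3, 12.3 and 8.28, then 12.9, 12.2 and 8.68. Every treated library lay below every untreated library of its genotype, and the low and high doses overlapped. The log2 fold changes in Apoe-/- were -0.56 (adjusted p = 0.0277) and -0.51 (adjusted p = 0.0122), and those in the double knockout, -0.40 (adjusted p = 0.169) and -0.32 (adjusted p = 0.116), did not pass. The Apoe-/- low-dose call was lost without untreated replicate 2 or 3 or any of the low-dose replicates (adjusted p = 0.059 to 0.103), and the high-dose call without untreated replicate 2 or 3 or high-dose replicate 2, at log2 fold changes of -0.46, -0.46 and -0.45. The difference between the genotypes itself was 0.15 at the low and 0.19 at the high dose, with adjusted p = 1 and 0.754.

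Zfp36 (chromosome 7, 28376784 to 28379228) declined with dose. Its levels in Apoe-/- BMDM were 18.6, 28.3 and 26.4 RPKM untreated, 14.7, 18.3 and 12.7 at the low dose and 9.17, 10.4 and 9.96 at the high dose. Those of the double knockout were 20.2, 20.1 and 29.9, then 15.0, 13.3 and 16.4, then 12.8, 9.57 and 10.6. The treatments did not overlap within a genotype, although untreated replicates spread widely. At the high dose the log2 fold change was -1.29 (SE 0.174, adjusted p = 2.43e-05) in Apoe-/- and -1.07 (SE 0.174, adjusted p = 0.000178) in the double knockout. The low-dose changes were nearly equal, -0.68 in Apoe-/- (adjusted p = 0.0268) and -0.63 in the double knockout (adjusted p = 0.0527), yet only the first passed. With the replicate number as a block the double-knockout change passed too (adjusted p = 0.00371), as it did without Apoe-/- untreated replicate 1 or 2 or Apoe-/- low-dose replicate 2 (adjusted p = 0.0265 to 0.0498). The Apoe-/- call was lost without untreated replicate 2 or 3 or low-dose replicate 1 or 3 (adjusted p = 0.0699 to 0.118).

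Socs3 (chromosome 11, 117966079 to 117970336), whose protein blocks signalling of the IL-6 and G-CSF receptor families, showed the largest change of the 10. In Apoe-/- BMDM it went from 12.3, 19.0 and 11.9 RPKM untreated to 3.38, 3.49 and 2.58 at the low dose and 1.23, 0.733 and 0.798 at the high dose. The double-knockout levels went from 13.6, 16.0 and 20.1 to 3.39, 2.68 and 3.35 and then to 1.31, 1.16 and 1.09. The 3 treatments were far apart and the genotypes overlapped at every treatment. High-dose libraries held 3.86% to 10.0% of the level in the same replicate untreated. The log2 fold change was -2.13 at the low dose (SE 0.199, adjusted p = 2.26e-05) and -3.82 at the high dose (SE 0.199, adjusted p = 6.62e-10) in Apoe-/-, and -2.35 (adjusted p = 7.17e-06) and -3.68 (adjusted p = 1.23e-09) in the double knockout.

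Socs1 (chromosome 16, 10783808 to 10785536) encodes the inhibitor best known for restraining interferon receptors. Apoe-/- libraries held 0.632, 0.829 and 0.940 RPKM untreated, 0.401, 0.511 and 0.527 at the low dose and 0.248, 0.282 and 0.594 at the high dose. Double-knockout libraries held 0.808, 0.971 and 1.17, then 0.446, 0.418 and 0.353, then 0.319, 0.482 and 0.314. All treated libraries were below the untreated ones of their genotype, and the doses overlapped. In the double knockout the log2 fold change was -1.09 at the low dose (adjusted p = 0.0102) and -1.20 at the high dose (adjusted p = 0.000769), the former lost without untreated replicate 3 (adjusted p = 0.0655). In Apoe-/- it was -0.63 (adjusted p = 0.114) and -0.98 (adjusted p = 0.00343), and the low-dose change passed with the replicate block (adjusted p = 0.0212) or without high-dose replicate 3 (adjusted p = 0.0459), the library that held 0.594 RPKM. The reads behind these values were 17 to 65 per library.

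Cish (chromosome 9, 107296659 to 107302784), a STAT5-induced inhibitor of the same family, was scarce before treatment and scarcer after it. Apoe-/- BMDM held 0.175, 0.176 and 0.149 RPKM untreated, 0.0371, 0.0454 and 0.0546 at the low dose and 0.0367, 0.0515 and 0.0466 at the high dose. The double knockout held 0.191, 0.229 and 0.200, then 0.127, 0.0968 and 0.0522, then 0.0751, 0.0622 and 0.0399. The low-dose level was 27.4% of untreated in Apoe-/- and 44.6% in the double knockout, and the high-dose levels were 26.9% and 28.6%. On the log2(RPKM + 0.1) scale, which understates the change of so low a gene, the low-dose change was -0.87 in Apoe-/- (adjusted p = 0.00565) and -0.69 in the double knockout (adjusted p = 0.0305). The Apoe-/- call was lost in a fit restricted to the 2 groups (adjusted p = 0.0732) and without the Xist-positive libraries (adjusted p = 0.0528), and the double-knockout call under both as well (adjusted p = 0.146 and 0.338). The latter passed with all libraries but not without any one of the untreated replicates or low-dose replicate 2 or 3 of that genotype (adjusted p = 0.0691 to 0.117). With a pseudocount of 1 the changes in both genotypes and at both doses were between -0.19 and -0.14 and came under the fold limit. With a pseudocount of 0.01 the low-dose change in the double knockout was -1.16, and its call was lost there too (adjusted p = 0.0897).

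Socs2 (chromosome 10, 95383903 to 95417321), known for restraining growth hormone signalling, did not pass the test at either dose, unlike Socs3, Socs1 and Cish at the high dose. Of the 4 other SOCS genes 0 fell at the high dose, beside 6.78% of all genes in Apoe-/- and 7.31% in the double knockout. For so few genes that count lies near those shares. Socs2 levels ran from 0.0357 to 0.212 RPKM over the 18 libraries, and treated and untreated libraries overlapped in both genotypes. The log2 fold change at the high dose was -0.15 in Apoe-/- (95% interval -0.78 to 0.48) and 0.15 in the double knockout (95% interval -0.47 to 0.78). Means over the 3 treatments were 0.168, 0.0933 and 0.154 RPKM in Apoe-/- replicates 1 to 3 and 0.105, 0.137 and 0.0463 in those of the double knockout, with no test between animals. The 3 Apoe-/- animals overlapped, and double-knockout replicate 3 (0.0357 to 0.0669) lay below the other 2 of its genotype. The replicate with the lowest mean in each genotype was also the one with the lowest sum of 5 stromal markers (Col1a1, Col1a2, Col3a1, Dcn and Cxcl12), at 0.57 to 0.739 RPKM in Apoe-/- replicate 2 and 0.87 to 1.23 in double-knockout replicate 3, against 3.59 to 14.3 in the other replicates. These 2 animals were also the ones with Xist. Untreated, Apoe-/- replicate 2 nevertheless held more Socs2 (0.154 RPKM) than replicate 1 (0.119), whose stromal sum was 13.5 RPKM. The parts of stromal RNA and of sex in these values were not tested, and a long non-coding gene, Gm33230, overlaps Socs2.

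Dusp2 (chromosome 2, 127336159 to 127338377), a nuclear phosphatase of activated leukocytes, fell at the low dose, and no change between the doses passed. Its levels in Apoe-/- BMDM were 1.68, 2.09 and 1.81 RPKM untreated, 0.856, 0.691 and 0.683 at the low dose and 0.832, 0.617 and 0.983 at the high dose. In the double knockout they were 1.90, 1.53 and 2.69, then 1.04, 0.691 and 0.875, then 0.746, 0.682 and 0.706. The treated libraries all lay under the untreated ones. The log2 fold changes were -1.22 (adjusted p = 0.000893) and -1.12 (adjusted p = 0.000207) at the low and high dose in Apoe-/- and -1.12 (adjusted p = 0.00215) and -1.36 (adjusted p = 3.28e-05) in the double knockout.

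Dusp1 (chromosome 17, 26505591 to 26508472), whose protein MKP-1 turns off p38 and JNK and so limits cytokine output, did not decline at the high dose in any replicate. Apoe-/- BMDM held 10.8, 12.5 and 9.99 RPKM untreated, 13.1, 10.5 and 9.60 at the low dose and 17.9, 12.9 and 15.5 at the high dose. The double knockout held 18.6, 19.0 and 14.4, then 18.6, 17.5 and 12.7, then 26.4, 24.5 and 15.4. In 6 of 6 replicates the high-dose library was above the untreated and the low-dose library of the same number, at 103.5% to 164.6% of untreated. The high-dose log2 fold change was 0.46 in Apoe-/- (SE 0.194, adjusted p = 0.0841) and 0.32 in the double knockout (SE 0.194, adjusted p = 0.255) and did not pass. With the replicate block the adjusted p was 0.00188 and 0.0235, and the fold stayed under 1.4. In the double knockout the gene passed without high-dose replicate 3 (0.56, adjusted p = 0.031). Without the Xist-positive libraries, a choice made after seeing the data, it passed in Apoe-/- (0.67, adjusted p = 0.0008) and was under the fold limit in the double knockout (0.43, adjusted p = 0.0193).

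Between the doses some of the genes fell further. For the others no further fall passed the test, which does not show that there was none. From the low to the high dose 4 of 10 fell and none rose in Apoe-/- (Socs3, Nfkbia, Nfkbiz and Zfp36; 3.54% of all genes fell and 2.91% rose), and 3 of 10 fell and none rose in the double knockout (Socs3, Nfkbia and Nfkbiz; 3.74% fell and 1.92% rose). The log2 differences between the doses in Apoe-/- and the double knockout were -1.69 and -1.33 for Socs3, -1.22 and -1.05 for Nfkbiz, -0.68 and -0.64 for Nfkbia and -0.61 and -0.44 for Zfp36, of which the last, with adjusted p = 0.102, did not pass. The Zfp36 difference in Apoe-/- (adjusted p = 0.0267) was lost without low-dose replicate 1 or 2 or high-dose replicate 1 or 3 (adjusted p = 0.0566 to 0.113). For Dusp2 the differences were 0.10 (95% interval -0.30 to 0.49) and -0.24 (95% interval -0.64 to 0.16), and for Tnfaip3 0.04 (-0.26 to 0.35) and 0.08 (-0.22 to 0.38), with adjusted p values from 0.432 to 0.903. Cish differed by -0.01 (-0.37 to 0.36) and -0.26 (-0.62 to 0.11) and Socs1 by -0.35 (-0.84 to 0.13) and -0.11 (-0.60 to 0.37), and Socs1 in Apoe-/- passed without high-dose replicate 3 (adjusted p = 0.0457). Dusp1 differed upward by 0.48 and 0.42 (adjusted p = 0.127 and 0.164), and in the double knockout it passed without high-dose replicate 3 (adjusted p = 0.0223). Without the Xist-positive libraries it passed in both genotypes (0.57 and 0.49, adjusted p = 0.00622 and 0.016).

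**Figure D3:**
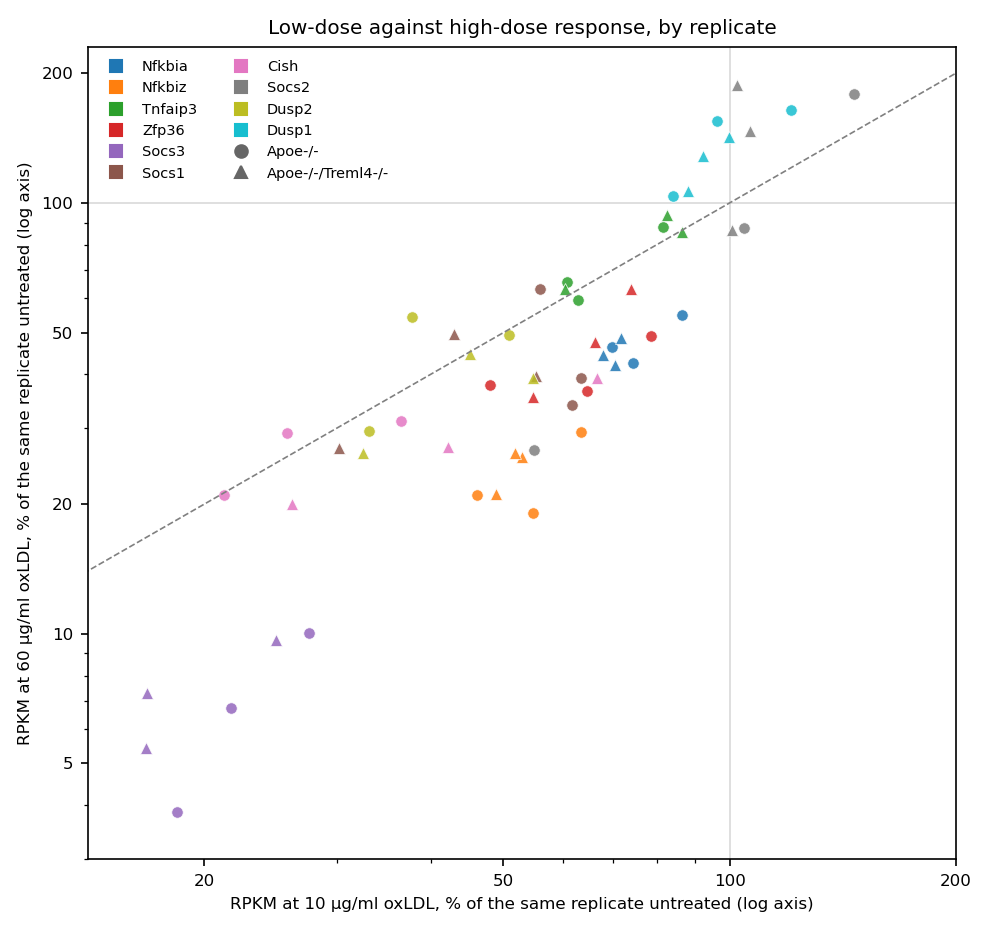
Level at the high dose against level at the low dose, each as a percent of the same replicate untreated (both axes logarithmic), with 1 point per gene and replicate. Points under the dashed line of equality had declined further at the high dose, as all 6 replicates had for Socs3, Nfkbiz, Nfkbia and Zfp36, whereas all 6 Dusp1 points lie above it.

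Loss of Treml4 made no difference to these inhibitors that passed the test in the main fit, which had a mean for each group and no other term. Of the 10 genes 0 were called between the genotypes untreated, at the low dose or at the high dose, beside 0.210%, 0.0857% and 0.125% of all genes, and 1, 2 and 1 of them had an unadjusted p under 0.05 by limma, beside 17.3%, 9.75% and 7.88% of all genes. The response to oxLDL itself differed between genotypes for 0 of 10 at either dose, beside 0% and 0.0156% of all genes called. At an unadjusted p under 0.05 by limma it differed for 0 of 10 at either dose, beside 1.92% and 9.78% of all genes. For Socs3 at the high dose the genotype difference was 0.36 (95% interval -0.06 to 0.78), and for Cish at the low dose 0.38 (0.02 to 0.75, adjusted p = 0.498). For Nfkbia the intervals of the difference lay within -0.19 and 0.30 at the 3 treatments. With all libraries and an Xist term or a block on the replicate number added, Dusp1 did pass between untreated genotypes, as given below.

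**Figure D4:**
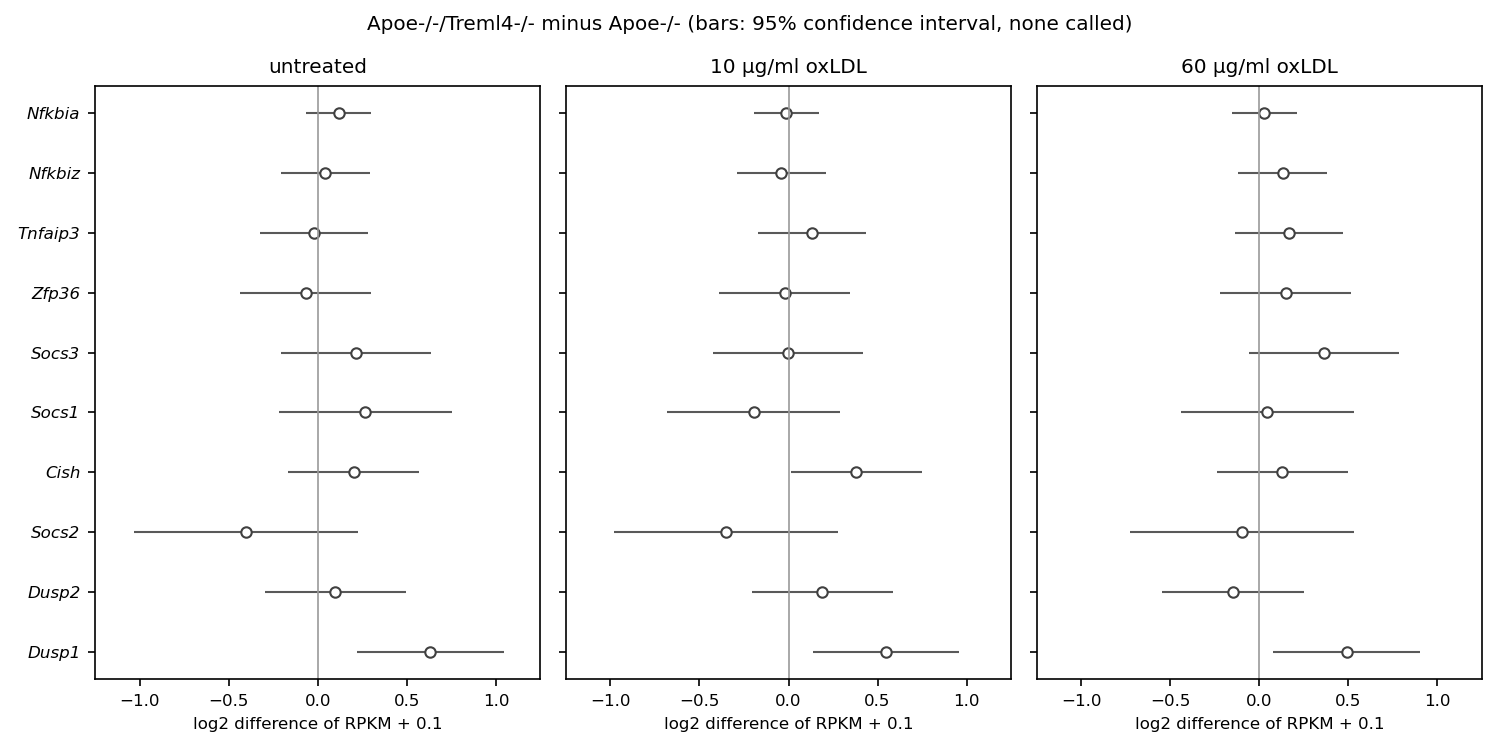
Difference between genotypes, Apoe-/-/Treml4-/- minus Apoe-/-, on the log2(RPKM + 0.1) scale for each inhibitor at each treatment, with its 95% confidence interval. In the main fit shown no gene passed the threshold, and only Dusp1 had an interval above 0 at all 3 treatments.

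Dusp1 came nearest to a difference. Its mean was 17.3 ± 2.56 RPKM in the untreated double knockout and 11.1 ± 1.27 in untreated Apoe-/-, where every double-knockout library lay above every Apoe-/- library. The log2 differences were 0.63 untreated, 0.55 at the low dose and 0.49 at the high dose (SE 0.194 for each), with adjusted p = 0.141, 0.453 and 0.575. Among the libraries with Xist, 1 of each genotype per treatment, double-knockout and Apoe-/- Dusp1 were 14.4 and 12.5 RPKM untreated, 12.7 and 10.5 at the low dose and 15.4 and 12.9 at the high dose. Among those without Xist, 2 of each genotype, the double knockout was higher by 0.85, 0.68 and 0.61 on the log2 scale (adjusted p = 0.00234, 0.017 and 0.0373), a choice of libraries made after seeing the data. With that choice 308, 110 and 74 of the 12838 genes were called between genotypes, beside 27, 11 and 16 in the main fit. A term for Xist made the untreated difference pass (adjusted p = 0.0189), as did a block on the replicate number (adjusted p = 0.0298), which does not stand for shared animals between genotypes. The neutrophil marker sum was 82.3, 69.5 and 36.7 RPKM in untreated double-knockout replicates 1 to 3 against 40.5, 30.2 and 47.4 in Apoe-/-. It was thus higher in double-knockout replicates 1 and 2, while replicate 3 lay within the Apoe-/- range. At the high dose the double-knockout sums were lower, at 59.01, 46.55 and 32.75 RPKM, whereas Dusp1 was higher than untreated in each replicate. Of the 8 neutrophil markers 7 were detected, with Ly6g under 0.1 RPKM in every library. The part of neutrophil RNA in the Dusp1 difference was not tested.

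Other genes of these pathways, in lists that like the 10 genes were chosen with earlier results of the data known, were counted by the same test. The counts stand beside the 6.78% of all genes that fell and 7.13% that rose at the high dose in Apoe-/- and the 7.31% and 4.87% in the double knockout, and several lie near those shares. Of 23 further inhibitors of NF-kB signalling 9 fell and 3 rose at the high dose in Apoe-/-, and 9 fell and 1 rose in the double knockout. Those that fell included Tnip3, a partner of A20, from 53.3 ± 6.58 to 20.9 ± 0.864 RPKM in Apoe-/- (log2 fold change -1.34, adjusted p = 5.24e-09), and Irak3, which blocks Toll-like receptor complexes, from 16.6 ± 2.77 to 5.54 ± 0.374 (-1.56, adjusted p = 4.99e-08). Traf1, an adaptor of TNF receptors, and N4bp1, which curbs NF-kB activation, declined by -1.55 and -1.08 on that scale. Of the other mRNA decay factors 2 of 7 fell in Apoe-/- and 3 of 7 in the double knockout, with Zc3h12c (-1.64 and -1.44) at the lowest p and Zfp36l1 at -1.74 and -1.44. Of the 4 other SOCS genes 1 passed, Socs6, upward in Apoe-/- (0.61, adjusted p = 1.47e-05). Socs6 in the double knockout (0.38, adjusted p = 0.00151) and Socs5 in both genotypes (-0.37 and -0.43, adjusted p = 0.0105 and 0.00456) were under the fold limit. Of 11 other DUSP genes 0 fell at the high dose and 3 rose in Apoe-/-, Dusp3 (0.68), Dusp4 (0.59) and Dusp5 (1.07), of which Dusp3 also rose in the double knockout (0.56). Among 14 further brakes of JAK and STAT signalling 4 fell and 1 rose in Apoe-/-, and 2 fell and 1 rose in the double knockout, with Usp18, the interferon-receptor inhibitor, at -2.72 and -2.70 and the phosphatases Ptpn6 at -0.98 and -1.09 and Ptpn1 at 1.10 and 1.03.

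The genes that drive these inhibitors, and those they restrain, were counted as well. Beside the low-dose counts stand the 2.04% of all genes that fell at that dose in Apoe-/- and 1.69% in the double knockout. Of 10 genes of NF-kB subunits and the IKK complex 4 fell and 1 rose at the high dose in each genotype, Nfkb1 by -0.91 and -0.87 and Ikbke by -1.39 and -1.46, with Ikbkg higher by 0.91 and 0.78. Of 11 JAK and STAT genes 3 fell in each genotype at both doses, among them Jak2 and Stat2, at -1.16 and -1.59 in Apoe-/- at the high dose. Among 23 receptors that use JAKs 5 fell and 3 rose at the high dose in Apoe-/-, and 6 fell and 1 rose in the double knockout. At the low dose 0 of them were called in either genotype. Of the 22 cytokines and related genes listed 17 were tested, and 14 fell and 1 rose at the high dose in each genotype, after 12 and 11 had fallen at the low dose. Tnf, whose mRNA tristetraprolin targets, went from 93.2 ± 10.1 to 31.8 ± 5.78 RPKM in Apoe-/- (log2 fold change -1.56, adjusted p = 3.66e-07), and Il1b from 6.26 ± 2.19 to 0.364 ± 0.204 (-3.81, adjusted p = 7.38e-07). Il10, which acts through STAT3 and induces Socs3, went from 2.18 ± 0.610 to 0.752 ± 0.265 (-1.44, adjusted p = 6.05e-05), and Osm was the cytokine that rose, from 1.57 ± 0.206 to 4.44 ± 0.206 (1.45, adjusted p = 0.00038). Of 14 MAP kinase genes tested 2 fell at the high dose in Apoe-/- and 1 in the double knockout, and 0 were called at the low dose in either. Between the genotypes none of the genes in these lists passed the test at any treatment.

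**Figure D5:**
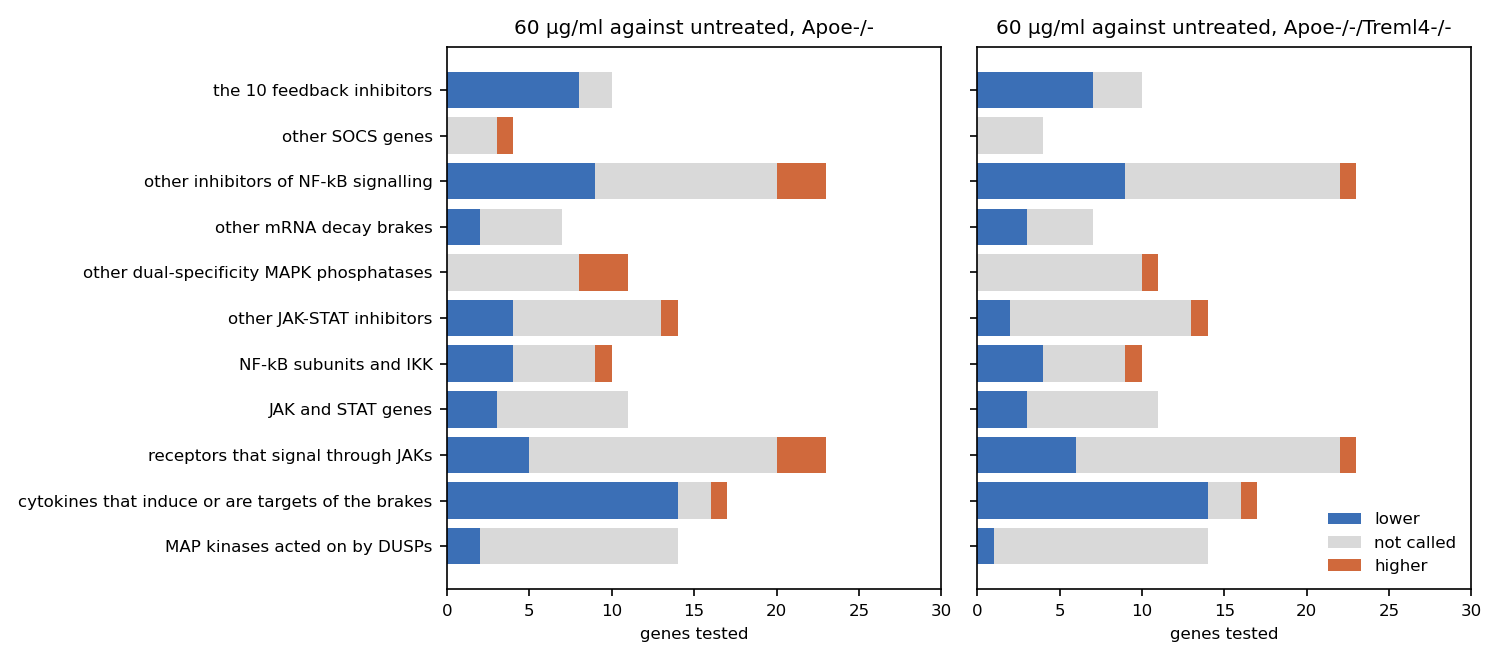
Number of genes lower, not called or higher at 60 µg/ml oxLDL against untreated among the 10 feedback inhibitors and in 10 lists of related genes, for each genotype. Of the 10 inhibitors 8 and 7 were lower and 0 higher, and of the 17 cytokine genes tested 14 were lower in each genotype. Of all genes tested 6.78% were lower and 7.13% higher in Apoe-/-, and 7.31% and 4.87% in Apoe-/-/Treml4-/-. Several lists lie near those shares, among them the 11 other DUSP genes with 0 lower.

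Each inhibitor's nearest neighbours were taken as the 3 genes with the highest Pearson correlation of log2(RPKM + 0.1) over the 18 libraries, among 10095 genes tested with a mean of at least 1 RPKM. These points share animals and treatments, so that any gene with the same dose response scores highly. For Socs3 they were Nlrp3 (r = 0.993), Zc3h12c (0.989) and Spata13 (0.985), for Nfkbia Vasp (0.995), Cxcl16 (0.990) and Traf1 (0.989), and for Nfkbiz Jak2 (0.994), Ptger4 (0.993) and Spata13 (0.992). Zfp36 was nearest to Gpr132 (0.986), Nfkb1 (0.974) and Susd6 (0.974), and Tnfaip3 to Gadd45b (0.941), St7 (0.918) and Src (0.915). The nearest genes to Socs1 included Pak4 (0.905) and Nlrc5 (0.883), Cish was nearest to Rab11fip1 (0.938), Ccl3 (0.932) and Lcn2 (0.926), and Dusp2 to Srebf2 (0.945), Rnf19b (0.919) and Isg20 (0.912). Dusp1 stood with Sh2b2 (0.963), Bcl2l2 (0.939) and Met (0.936). Socs2 had the weakest neighbours, Lox (0.776), Serpinf1 (0.762) and Myl9 (0.755), genes known from fibroblasts and smooth muscle.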

How the data were processed

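RNA of 18 BMDM libraries was sequenced by the authors, and the deposited table holds 1 RPKM value per gene and library. Per the labels the libraries were stranded, on differing platforms, and the submitters' processing notes name STAR and mm10. The study's methods list several counting tools, and the one behind the RPKM values and its use of strand are not given in the sources used here. Columns were matched to libraries by the labels, which also gave the group and replicate number of each.

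RPKM values are not counts, so log2(RPKM + 0.1) was fitted with limma 3.58.1 in R 4.3.3 (a mean for each of 6 groups, all 18 libraries in 1 fit, empirical Bayes with a trend) over 12838 genes that reached 0.1 RPKM in 3 or more libraries. A gene was called at a Benjamini-Hochberg adjusted p under 0.05 and a fold of at least 1.4, the limits of the study's methods. An exact permutation test of 3 against 3 libraries cannot give a two-sided p under 0.1, so none is quoted. The fit was also run on simulated data with independent libraries, a run that cannot show the effect of libraries sharing an animal. Within a genotype, libraries of the same replicate number deviated together from their group means in 18 of 18 pairs (r from 0.234 to 0.803 over 10102 genes), so each number was read as 1 animal within its genotype, as a hint from the data. Between genotypes the median r was -0.257, so numbers do not pair animals there. As an alternative the animal (6 in all) was a block for comparisons within a genotype and for interactions, and the replicate number shared between genotypes, which those data do not bear out as a pairing, for comparisons between genotypes, beside other pseudocounts, filters, scalings, an Xist term and each library left out.

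Low RPKM values stepped in whole multiples of what 1 read is worth (within 0.05 of a read for 76.8% of 2549 low genes), which with GENCODE M21 exon lengths gave relative depth and the read numbers quoted. Confidence intervals are for a difference between group means in the main fit, with an error taken from the spread between libraries within groups. That fit has no term for the animal, so the intervals treat libraries of the same animal as independent. Gene positions and windows came from RefSeq for GRCm38.p6. The table also held 24 date-like symbols, none of the genes named here. The 10 genes and the gene lists were chosen with earlier results of these data known. From each list at most 4 called genes of lowest p with a mean of at least 1 RPKM were named per comparison. Some genes that the naming rule would give are not reported here.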

Additional observations from a re-analysis of the deposited data

How the results depend on the processing

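In all, 69 gene results were refitted under up to 29 alternatives, giving 1980 values, of which 1891 kept direction and side of the threshold, 41 lost a call, 21 gained a call and 27 changed sign. The number of inhibitors called moved as follows. With a pseudocount of 1, 5 in place of 8 fell at the high dose in Apoe-/-, since Socs1, Cish and Tnfaip3 came under the fold limit. At the low dose in the double knockout the count ran from 3 to 7 over fits without 1 library. Between untreated genotypes the count was 1 (Dusp1) in place of 0 under the replicate block, with the Xist term and without the Xist-positive libraries, and at both doses it was 1 without those libraries, an alternative added after seeing the data. The replicate block changed 3 calls, all gained and given above (Dusp1 untreated between genotypes, Socs1 in Apoe-/- and Zfp36 in the double knockout at the low dose).

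At the low dose in Apoe-/- Zfp36 and Tnfaip3 lost their calls without a filter (adjusted p = 0.0612 and 0.0589), Zfp36 also with only the groups compared (0.0717), and at the low dose in the double knockout Socs1 lost its call without the Xist-positive libraries (0.123). No called value changed sign. Without Xist-positive libraries Socs2 in Apoe-/- was at 0.18, 0.20 and 0.017 (low, high, high against low), Dusp1 at the low dose in Apoe-/- at 0.10 and the Socs3 genotype difference at the low dose at 0.027. Over fits without 1 library the log2 ranges were -0.050 to 0.036 for Cish, -0.018 to 0.11 for Tnfaip3, -0.039 to 0.26 for Dusp2 and -0.37 to 0.20 for Socs2 between the doses in Apoe-/-, -0.089 to 0.26 for Tnfaip3 and -0.090 to 0.33 for Socs2 between the doses in the double knockout, -0.14 to 0.083 and -0.23 to 0.069 for Dusp1 at the low dose in Apoe-/- and the double knockout, -0.14 to 0.15 and -0.41 to 0.17 for Socs2 at the low and high dose in Apoe-/-, -0.20 to 0.24 and -0.065 to 0.36 for Socs2 at those doses in the double knockout, and -0.13 to 0.11 for the Socs3 genotype difference at the low dose. The median-ratio scaling changed no count of called inhibitors by over 1.5 times, but moved the share of higher genes among all calls from 26.8% to 16.7% at the low dose in Apoe-/-, from 33.9% to 51% between doses in the double knockout and from 81.5% to 58.3% between untreated genotypes. It shifted the median gene of the high-dose interaction from -0.11 to 0.01. Over all genes the calls between genotypes went from 27, 11 and 16 (untreated, low, high) to 308, 110 and 74 without Xist-positive libraries, to 172, 75 and 49 with the Xist term, to 13, 4 and 3 with only the groups compared and to 82, 23 and 20 under the block, which also raised the low-dose count in the double knockout from 290 to 449. Leaving out 1 library moved the all-gene counts to 12 to 75 between untreated genotypes (12, 15 and 75 without double-knockout untreated replicate 1, 2 or 3, 14 without Apoe-/- untreated replicate 2 and 45 without Apoe-/- low-dose replicate 2), to 8 to 19 between genotypes at the high dose (8 without Apoe-/- high-dose replicate 3 or double-knockout high-dose replicate 2) and to 185 to 361 at the low dose in the double knockout (185 and 186 without untreated replicate 3 or low-dose replicate 2). The high-dose interaction count of 2 ran from 0 to 5 over all alternatives, and the untreated genotype count was 17 with no filter and 51 with no fold limit. Without the fold limit the low-dose, high-dose and between-dose counts rose from 358, 1786 and 829 to 904, 3873 and 1731 in Apoe-/- and from 290, 1564 and 726 to 510, 3319 and 2000 in the double knockout. Cish and Socs2, at 4 to 34 reads, are limited by depth.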
